A study of Homo sapiens with 6 samples.

Results

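The genes described are 10 members of the BCL2 family that are not usually counted among the direct p53 targets: the pro-survival genes BCL2, BCL2L1, BCL2L2 and MCL1, the pore-forming effector BAK1, and the BH3-only genes BCL2L11, BID, BAD, BMF and HRK. They were taken by symbol from the deposited count tables; all 10 were found among 19923 genes, and all 10 were among the 15311 genes expressed highly enough to be tested. The cells were Kelly, an established human neuroblastoma line with amplified MYCN and, per the labels, a wild-type (WT) genotype in every library. They received a control siRNA (siControl, 3 libraries) or an siRNA against METTL3 (siMETTL3, 3 libraries) by lipid transfection and were collected after 72 hours, without any further agent in either group. The protocol gives an siRNA concentration of 20 μM, and 1 cell line stands for neuroblastoma here. METTL3 is the catalytic subunit of the enzyme complex that places N6-methyladenosine (m6A) on mRNA.

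BCL2 family proteins decide at the mitochondrial outer membrane whether a cell starts apoptosis. The pro-survival proteins (BCL-2 from BCL2, BCL-xL from BCL2L1, BCL-w from BCL2L2, and MCL-1) hold the effectors BAK and BAX inactive. BH3-only proteins such as BIM (from BCL2L11), BID, BAD, BMF and HRK bind the pro-survival proteins, and some also activate the effectors directly, after which the outer membrane is opened and cytochrome c is released. Neuroblastoma cells commonly depend on BCL-2 or MCL-1, and the family is a drug target there.

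Since the protein of the targeted gene writes m6A, short stretches of the members' transcripts are shown that contain GGACT. This is a common form of the sequence that the METTL3 complex methylates. For each of the 5 members that differed between the groups (below), the line gives the GGACT nearest to the stop codon with 8 bases on either side, 5′ to 3′ on the transcript strand, with the motif in capitals. The sequence is that of the GENCODE release 44 canonical transcript (GRCh38).
MCL1: atgcagttGGACTccaagctg
BAK1: ccctgcctGGACTtaagcgaa
BCL2L1: aaggaccaGGACTccctcctc
BCL2: cgaataccGGACTgaaaattg
BAD: ttaagaagGGACTtcctcgcc

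The MCL1 window (chr1:150577294-150577314, minus strand) lies in the 3′ UTR, with the adenosine of the motif 71 bases after the end of the stop codon. That of BAK1 (chr6:33573747-33573767, minus strand) is also in the 3′ UTR, 46 bases after it, and that of BCL2L1 (chr20:31665376-31665396, minus strand) 563 bases after it. The nearest GGACT of BCL2 (chr18:63319460-63319480, minus strand) is in the 5′ UTR, 1302 bases before the end of the stop codon. The BAD window is in the coding sequence, 123 bases before it, and crosses an exon junction between 64270322 and 64271617 on chromosome 11. Distances in the members that did not differ were 4 (BID), 68 (BMF), 156 (BCL2L11), 204 (HRK) and 329 bases (BCL2L2). Whether this distance is related to the changes was not tested. GGACT was searched on the transcript strand alone. All 10 canonical transcripts held it, as did 91.3% of the 14558 tested genes with a canonical transcript. BCL2L1 had 2.33 occurrences per kb of transcript, BAK1 2.30, BID 2.30, BAD 2.15, BMF 1.92, MCL1 1.77, HRK 1.38, BCL2L11 1.18, BCL2L2 1.13 and BCL2 0.436. The median over tested genes was 0.928 per kb, so BCL2 lay under it and the other 9 members above. Called members stood at both ends of that order. Methylation itself was not measured in the files used here, and a match is not a methylated site.

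The libraries held between 15430000 (siControl replicate 3) and 21565013 counts. METTL3, the targeted gene, was at 53.5, 52.8 and 56.2 CPM in siControl and at 32.99, 31.8 and 34.3 CPM in siMETTL3, where CPM are counts scaled to library size (edgeR's CPM after TMM scaling). The groups did not overlap, and the change on the log2 scale was -0.71 ± 0.070 (SE) (edgeR quasi-likelihood test, adjusted p 4.68e-06, with Benjamini-Hochberg adjustment over all tested genes). METTL3 counts, taken over the whole gene span with introns, were thus 39.0% lower. The span is shared to 7.90% with TOX4 on the opposite strand, and reads there were counted for both genes. METTL3 protein was not measured in the files used here. All 7 neuroblastoma markers read here were expressed, with 5 higher (among them HAND2, DBH and MYCN) and 1 lower (ISL1, log2 fold change -1.18, edgeR adjusted p 6.06e-08) in siMETTL3. Their summed level, most of it MYCN (means of 3021 and 4638 CPM), was 4783 to 5294 CPM in siControl and 7224 to 7640 CPM in siMETTL3. The 4 Schwann cell markers summed to at most 8.65 CPM and the 4 leukocyte markers to at most 3.06 CPM in any library. Of 6 fibroblast markers, PDGFRB was expressed and the other 5 summed to at most 7.64 CPM. The sums of the fibroblast list were 85.3 to 99.2 CPM in siControl and 87.2 to 93.8 CPM in siMETTL3, with 1 of 3 tested markers (COL1A1) higher. The part of other cells in the results was not tested. In RNA from whole cultures, fewer cells expressing a gene and less of its RNA per cell cannot be told apart. The labels do not say whether the libraries of a group came from separate cultures, so p-values measure the spread between these libraries, which may be technical.

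Of the 10 members, 5 differed between siMETTL3 and siControl at an adjusted p (false discovery rate, FDR) under 0.05 in edgeR, the threshold used throughout. Of all tested genes, 37.8% did so (18.6% higher and 19.2% lower), and 5 of 10 members is 50.0%. MCL1 and BCL2 were lower; BCL2L1, BAK1 and BAD were higher. All 5 changes were small: the falls were of 17.0% and 19.6%, and the rises of 19.8% to 25.9%. The median absolute log2 fold change was 0.26 over the members and 0.21 over all tested genes, and the signed medians were -0.064 and -0.0021. Without siControl replicate 3, the library farthest from its own group, all 5 stayed past the threshold and BID passed it as well. Without siControl replicate 2, or without siMETTL3 replicate 1, 2 or 3, only 3 members passed in each fit, MCL1 among them. Calls over all genes numbered 6268 without siControl replicate 3 and 4406 without siControl replicate 2. They numbered 4210, 4346 and 4524 without siMETTL3 replicate 1, 2 and 3, and 5786 with all libraries. With all libraries, the groups did not overlap in the 5 members named above, against 49.9% of all tested genes. Changes thus went in both directions within the pro-survival genes, the rise being that of BCL2L1. Its call was lost with an offset for transcript GC content and length (below). Transcript GC content was 44.4% in BCL2, 45.1% in MCL1, 56.6% in BCL2L1, 58.6% in BAK1 and 65.8% in BAD. Uncalled members lay between 45.5% (BCL2L11) and 54.7% (BMF). Over genes with a canonical transcript, the median was 45.9% in those called lower and 52.6% in those called higher. Whether GC content underlies the directions was not tested.

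**Figure D1:**
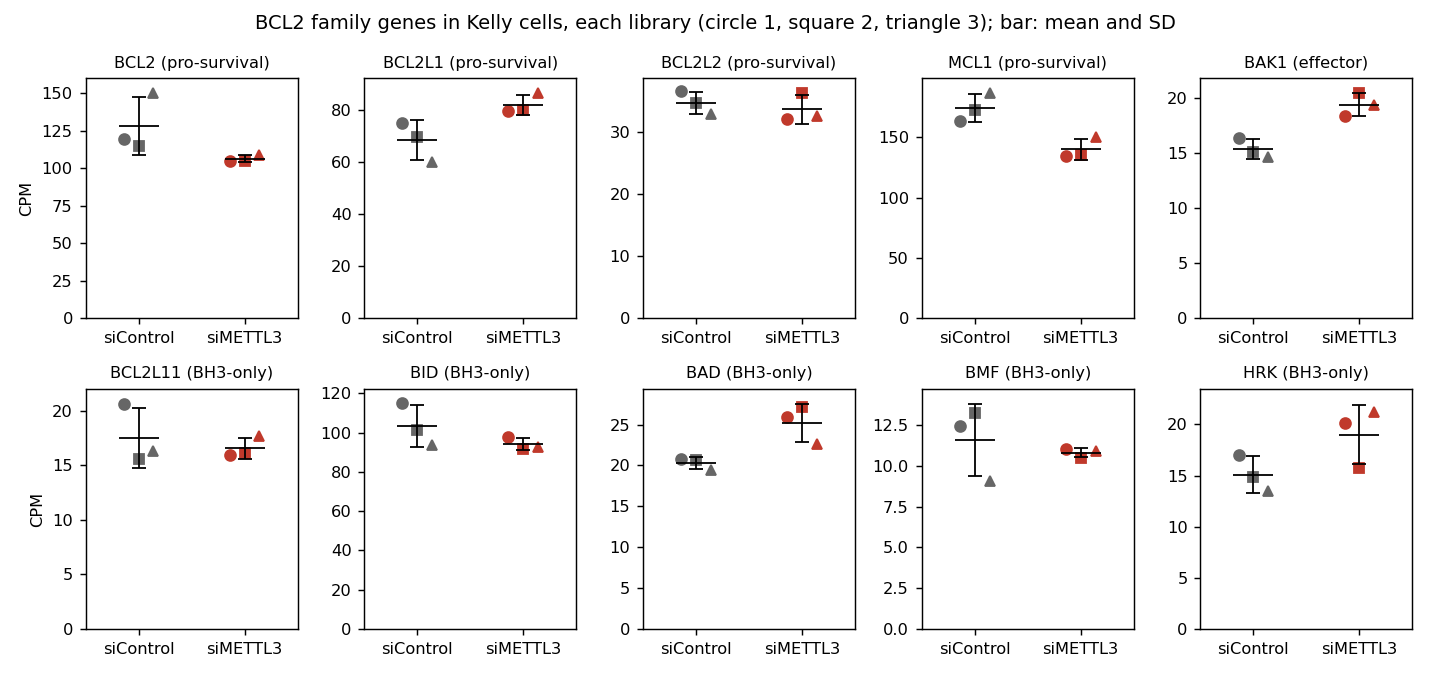
CPM (linear axes from 0) of the 10 genes in each library, with siControl in grey and siMETTL3 in red, the replicate number as the symbol, and the mean and SD of 3 libraries as bars. MCL1 and BCL2 have all siMETTL3 values under all siControl values, BCL2L1, BAK1 and BAD have them all above, and the other 5 overlap.

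MCL1 encodes a short-lived pro-survival protein that holds BAK and BIM, and it had the lowest adjusted p of the 10 members. The gene (chromosome 1, 150574551 to 150579738, minus strand) overlaps no other gene of the table. It was measured at 163.7, 172.3 and 186.4 CPM in siControl and at 134.4, 135.4 and 150.0 CPM in siMETTL3. Every siMETTL3 library lay under every siControl library. The mean went from 174.2 ± 11.5 to 139.9 ± 8.73 CPM (SD, n = 3), a log2 fold change of -0.32 ± 0.066 (SE) (edgeR adjusted p 0.00193), or 19.6% lower. Of all tested genes, 33.1% had a larger absolute log2 fold change. MCL1 passed the threshold in all 19 alternative fits, with log2 fold changes from -0.37 to -0.24 and adjusted p-values from 2.61e-05 to 0.0206. It was the single member of the 10 that did.

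BCL2 encodes the founding pro-survival protein and is the target of venetoclax. Its counted span is the longest of the family, with 196783 bases (chromosome 18, 63123346 to 63320128, minus strand), most of it introns, and overlaps no other gene of the table. BCL2 was at 119.6, 114.7 and 149.9 CPM in siControl and at 104.6, 105.0 and 108.8 CPM in siMETTL3. The siControl libraries all lay above the siMETTL3 libraries, but siControl replicate 3 stood apart from the other two. The mean went from 128.1 ± 19.0 to 106.1 ± 2.32 CPM (SD, n = 3), with a log2 fold change of -0.27 ± 0.086 (SE) (edgeR adjusted p 0.0267). Without siControl replicate 3 the log2 fold change was -0.14 (edgeR adjusted p 0.0379). The call was lost without siMETTL3 replicate 1, 2 or 3 (edgeR adjusted p 0.0920, 0.0866 and 0.0623), and the adjusted p went from 0.000609 to 0.0920 over the alternatives. In siControl replicate 3, BCL2 was 0.35 above the other siControl libraries on the log2 scale. The median of the 3396 tested genes with spans of at least 100 kb was 0.045 there, and that of all tested genes -0.0070.

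BCL2L1 encodes BCL-xL, the pro-survival protein that holds BAK together with MCL-1, and by alternative splicing also the pro-apoptotic BCL-xS, which a count per gene does not separate. The gene lies on chromosome 20, 31664452 to 31723989, minus strand, and overlaps no other gene of the table. It was at 75.0, 69.6 and 59.9 CPM in siControl and at 79.5, 79.8 and 86.2 CPM in siMETTL3. Here the siMETTL3 libraries all lay above the siControl libraries, with siControl replicate 3 lowest. The mean went from 68.2 ± 7.66 to 81.9 ± 3.80 CPM (SD, n = 3), a log2 fold change of 0.26 ± 0.078 (SE) (edgeR adjusted p 0.0173). The call was lost with an offset for transcript GC content and length (log2 fold change 0.15, edgeR adjusted p 0.0734, and 0.0818 with the replicate block as well), with an offset for intron length (0.16, edgeR adjusted p 0.0938), without siControl replicate 2 (edgeR adjusted p 0.0517) or without siMETTL3 replicate 3 (edgeR adjusted p 0.0921). Over the alternatives its adjusted p went from 0.00122 to 0.0938.

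BCL2L2 encodes BCL-w, a pro-survival protein important in neurons and the testis. Its span (chromosome 14, 23298790 to 23311759, plus strand) is shared to 69.4% with HOMEZ, PPP1R3E and the read-through gene BCL2L2-PABPN1, and reads there were counted for each gene. It was at 36.5, 34.6 and 32.9 CPM in siControl and at 32.0, 36.3 and 32.6 CPM in siMETTL3, so the groups overlapped. BCL2L2 had a log2 fold change of -0.045 with a 95% interval of -0.22 to 0.13 (edgeR adjusted p 0.706). The read-through gene did not pass the threshold either (log2 fold change 0.071, edgeR adjusted p 0.390).

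BAK1 encodes BAK, which sits in the outer membrane and forms pores once it is freed from MCL-1 and BCL-xL. The gene (chromosome 6, 33572547 to 33580293, minus strand) was at 16.4, 15.1 and 14.6 CPM in siControl and at 18.3, 20.4 and 19.4 CPM in siMETTL3. All siMETTL3 libraries lay above all siControl libraries. The mean went from 15.4 ± 0.908 to 19.4 ± 1.06 CPM (SD, n = 3), a log2 fold change of 0.33 ± 0.098 (SE) (edgeR adjusted p 0.0156), or 25.9% higher. The raw counts were 220 to 353 in siControl and 377 to 445 in siMETTL3. The call of BAK1 was lost with the offset for transcript GC content and length (log2 fold change 0.22, edgeR adjusted p 0.0645, and 0.0781 with the replicate block as well), without siControl replicate 2 (edgeR adjusted p 0.0572) or without siMETTL3 replicate 2 (edgeR adjusted p 0.0750). Its adjusted p went from 0.00848 to 0.0781 over the alternatives.

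Among the 5 BH3-only genes of the 10 members, BAD was the single one past the threshold. BAD encodes a protein that neutralises BCL-2 and BCL-xL and is kept in the cytosol by 14-3-3 proteins when phosphorylated. It was at 20.8, 20.6 and 19.4 CPM in siControl and at 25.9, 27.1 and 22.6 CPM in siMETTL3. All siMETTL3 libraries lay above all siControl libraries, with siMETTL3 replicate 3 nearest to them. The mean went from 20.3 ± 0.725 to 25.2 ± 2.31 CPM (SD, n = 3), a log2 fold change of 0.31 ± 0.094 (SE) (edgeR adjusted p 0.0172). Its call was lost without siMETTL3 replicate 1 (edgeR adjusted p 0.0724) or without siMETTL3 replicate 2 (edgeR adjusted p 0.0935), and the adjusted p went from 0.00863 to 0.0935 over the alternatives. The BAD span (chromosome 11, 64269830 to 64284704, minus strand) is shared to 98.4% with GPR137 on the opposite strand, and counting did not use strand, so reads of the 2 genes cannot be told apart in the shared 14643 bases. GPR137 had more counts than BAD in every library and did not pass (log2 fold change 0.036, 95% interval -0.14 to 0.21, edgeR adjusted p 0.768). Reads in the shared bases were counted for both genes, so the 2 results are not independent. Which gene the rise in BAD counts belongs to was not tested.

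HRK encodes a BH3-only protein that is known from neurons deprived of trophic factor. It (chromosome 12, 116856144 to 116881441, minus strand) was at 17.0, 14.8 and 13.5 CPM in siControl and at 20.1, 15.7 and 21.2 CPM in siMETTL3. The groups overlapped through siMETTL3 replicate 2. The log2 fold change of 0.32 was close in size to those of BAK1 and BAD, but its SE was larger, 0.13, and it was not past the threshold (95% interval 0.050 to 0.60, edgeR adjusted p 0.0599). It was past it without siMETTL3 replicate 2 (log2 fold change 0.44, edgeR adjusted p 0.0206) or without siControl replicate 1 (0.42, edgeR adjusted p 0.0150), with upper quartile scaling (edgeR adjusted p 0.0471), and with the replicate number as a block (edgeR adjusted p 0.0390). Its adjusted p went from 0.0150 to 0.240 over the alternatives.

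BID encodes the BH3-only protein that caspase-8 cleaves to link death receptors to mitochondria. The gene (chromosome 22, 17734138 to 17774770, minus strand) was at 115.1, 101.0 and 93.8 CPM in siControl and at 97.6, 91.6 and 92.8 CPM in siMETTL3. The groups overlapped, and siControl replicate 1 was highest. BID had a log2 fold change of -0.14 with a 95% interval of -0.29 to 0.018 (edgeR adjusted p 0.154). BID was past the threshold without siControl replicate 3 (log2 fold change -0.20, edgeR adjusted p 0.00845), with the offset for intron length (-0.22, edgeR adjusted p 0.0186), and with the offset for transcript GC content and length together with the replicate block (-0.15, edgeR adjusted p 0.0379). Without siControl replicate 1 the log2 fold change was -0.053 (edgeR adjusted p 0.542). Over the alternatives the adjusted p went from 0.00845 to 0.542.

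BCL2L11 encodes BIM, a strong activator of BAK and BAX that binds every pro-survival protein of the family. It (chromosome 2, 111119378 to 111168445, plus strand) was at 20.6, 15.6 and 16.3 CPM in siControl and at 15.9, 16.1 and 17.7 CPM in siMETTL3. Its groups overlapped, with siControl replicate 1 above the other 5 libraries. The log2 fold change was -0.083 with a 95% interval of -0.34 to 0.17 (edgeR adjusted p 0.618), and 0.059 without siControl replicate 1. BMF, whose protein is tethered to the cytoskeleton until stress releases it, lies on chromosome 15, 40087890 to 40108892, minus strand. It was at 12.4, 13.2 and 9.09 CPM in siControl and at 11.03, 10.5 and 10.9 CPM in siMETTL3. All 3 siMETTL3 values lay inside the siControl range. Its log2 fold change was -0.11 with a 95% interval of -0.41 to 0.18 (edgeR adjusted p 0.565). It was -0.0083 without siControl replicate 2, -0.062 without siControl replicate 1 and -0.25 without siControl replicate 3, and -0.28 with the offset for transcript GC content and length (edgeR adjusted p 0.0824), so BMF was not past the threshold in any of these. At 137 to 268 counts in siControl, BMF was the least counted member, and changes of the size seen in MCL1 lie within its interval.

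**Figure D2:**
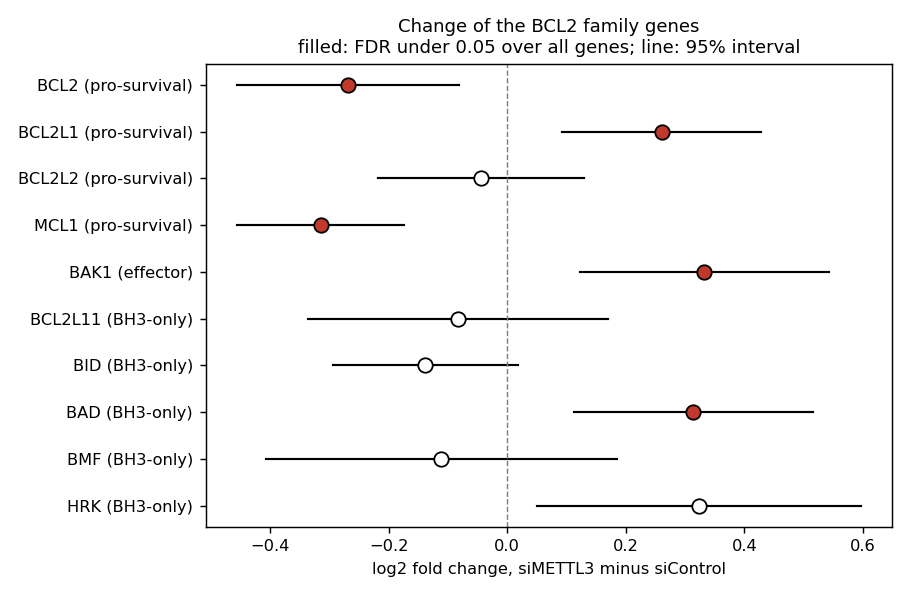
The log2 fold change (siMETTL3 minus siControl) of the 10 genes with its 95% interval; filled points have an adjusted p under 0.05 over all tested genes. MCL1 and BCL2 lie at -0.32 and -0.27, BCL2L1, BAD and BAK1 at 0.26 to 0.33, and the intervals of BCL2L2, BCL2L11, BID and BMF include 0.

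Levels can be compared between genes only per length, and the counted spans hold introns, so the order was set both per kb of canonical transcript and per kb of span. Per kb of transcript, BID (47.5 ± 4.96 CPM per kb in siControl, SD, n = 3) and MCL1 (44.1 ± 2.90) were highest, and their siControl libraries overlapped. BCL2L1 (26.5 ± 2.98), BAD (21.8 ± 0.781) and BCL2 (18.6 ± 2.77) followed, BAD and BCL2 overlapping. Next came BCL2L2 (9.83 ± 0.522), BAK1 (7.08 ± 0.418) and BCL2L11 (3.43 ± 0.539), each apart from its neighbours. HRK (2.61 ± 0.309) and BMF (2.47 ± 0.466) were lowest and overlapped. In siMETTL3, BID (43.2 ± 1.46 CPM per kb) lay above MCL1 (35.4 ± 2.21) without overlap. HRK (3.28 ± 0.501) and BCL2L11 (3.25 ± 0.189) changed places there but overlapped. BCL2L2 (9.55 ± 0.662) and BAK1 (8.93 ± 0.488) kept their order and overlapped in siMETTL3. Per kb of span, MCL1 was first in both groups (33.6 ± 2.21 and 27.0 ± 1.68 CPM per kb), and the other 9 members lay between 0.338 and 2.67. BCL2L1 moved from place 3 to place 6 and BCL2 from place 5 to place 7 in siControl on that scale. How many counts of a gene come from introns was not measured, so the place of the long genes depends on the length used. The levels of BAD and BCL2L2 may also hold reads of the genes that share their spans.

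**Figure D3:**
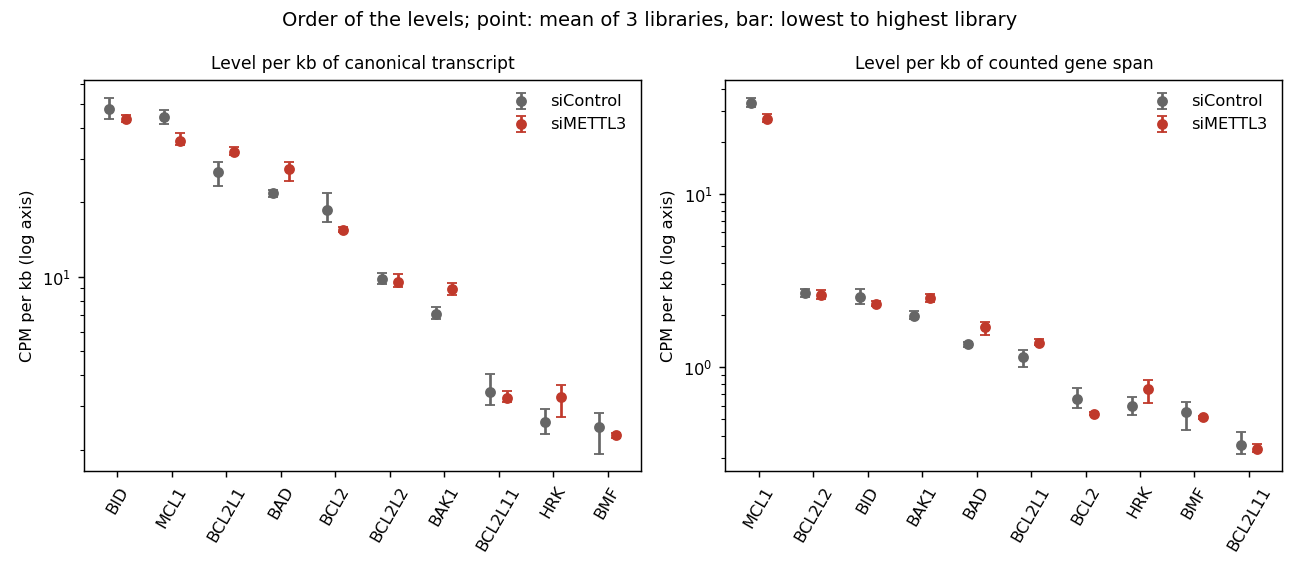
Mean CPM per kb (log axes) of each gene in siControl and siMETTL3, with bars from the lowest to the highest of 3 libraries, per kb of canonical transcript (left) and per kb of the counted span (right). MCL1 stands near 44.1 and 33.6 CPM per kb in siControl on the 2 scales, while BID falls from 47.5 to 2.54.

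By root mean square distance of centred log2 CPM over the 6 libraries, the genes most like MCL1, the member with the lowest adjusted p, were LIMA1 (0.021), DPH5 (0.022) and HSPA9 (0.023) among 11763 other genes whose average log2 CPM was 3 or more. Of the members, BCL2 was nearest to MCL1 (distance 0.089) and came at place 1136 of that order, and HRK was farthest (0.37).

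Other genes of the mitochondrial pathway were read from 4 lists. Of all tested genes, 37.8% were called, with a median log2 fold change of -0.0021. Of 11 tested other members of the BCL2 family, 1 was higher and 4 were lower (45.5% called, median log2 fold change -0.084). Among them, BAX, the other main effector, fell from 81.4 ± 5.28 to 55.9 ± 0.887 CPM (-0.54 on the log2 scale, edgeR adjusted p 2.77e-05), and BBC3, which encodes PUMA, from 21.3 ± 1.63 to 9.27 ± 1.23 CPM (-1.20, edgeR adjusted p 5.19e-06). PMAIP1, which encodes NOXA, the BH3-only partner of MCL-1, fell from 30.4 ± 4.09 to 17.9 ± 0.903 CPM (-0.76 on the log2 scale, edgeR adjusted p 9.10e-05). BNIP3, a mitophagy receptor, rose from 51.8 ± 1.59 to 83.7 ± 7.16 CPM (0.69 on the log2 scale, edgeR adjusted p 7.78e-06). Each of these 4 log2 fold changes was larger in size than that of any of the 10 genes above. The 4 had the lowest adjusted p-values of their list, whereas all 10 members were named. BCL2L12, the other called gene of the list, had a log2 fold change of -0.33 (edgeR adjusted p 0.0372). BCL2A1 and BCL2L10 were not expressed highly enough to be tested.

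Downstream of the membrane, 3 of 15 tested genes of the apoptosome, the caspases and their inhibitors were higher and 4 lower. This list had 46.7% called, against 37.8% of all tested genes, and a median log2 fold change of -0.052. CASP9, the initiator caspase that the apoptosome activates, rose from 9.83 ± 1.01 to 18.3 ± 0.636 CPM (0.89 on the log2 scale, edgeR adjusted p 3.53e-05). ENDOG, a mitochondrial nuclease, fell from 56.7 ± 3.54 to 33.3 ± 2.21 CPM (-0.77 on the log2 scale, edgeR adjusted p 6.21e-06). DIABLO and HTRA2, whose proteins leave the mitochondria and counter the inhibitors of apoptosis, fell with log2 fold changes of -0.35 and -0.31 (edgeR adjusted p 0.000681 and 0.00427). The spans of CASP9, ENDOG, HTRA2 and DIABLO overlap other genes over 1.58%, 72.4%, 37.1% and 100% of their length. Reads there were counted for each gene without regard to strand, so these counts may hold reads of the neighbours. Without siControl replicate 2 or siMETTL3 replicate 2, 4 genes of the list were called.

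Of 6 partners in the outer membrane, 1 was higher and 3 were lower. This small list had 66.7% called, against 37.8% of all tested genes, and a median log2 fold change of -0.16. VDAC3 fell from 70.0 ± 1.60 to 55.1 ± 2.89 CPM (-0.34 on the log2 scale, edgeR adjusted p 0.000865), and TOMM20 and TOMM22, subunits of the import translocase, had log2 fold changes of -0.26 each (edgeR adjusted p 0.0141 and 0.0181). VDAC1, a metabolite channel, rose (log2 fold change 0.17, edgeR adjusted p 0.0247). The count of 4 called genes fell to 1 without siMETTL3 replicate 2, and to 2 without siMETTL3 replicate 1 or 3 or siControl replicate 2. The calls of TOMM20, TOMM22 and VDAC1 were lost in some of these fits (TOMM20 adjusted p up to 0.0732, TOMM22 up to 0.0894, VDAC1 up to 0.127), and that of VDAC3 was kept in all of them. With the offset for intron length, TOMM22 and VDAC1 were not past the threshold (edgeR adjusted p 0.0706 and 0.143).

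Of 24 tested genes whose products act on the members, 4 were higher and 2 lower. This list had 25.0% called, against 37.8% of all tested genes, and a median log2 fold change of 0.060. MARCHF5, a mitochondrial ubiquitin ligase, rose from 33.7 ± 1.94 to 44.9 ± 2.08 CPM (0.41 on the log2 scale, edgeR adjusted p 0.000803). CASP8, the caspase that cleaves BID, rose from 1.48 ± 0.252 to 2.95 ± 0.427 CPM (1.00 on the log2 scale, edgeR adjusted p 0.00706), on 23 to 72 counts per library. AKT1, a kinase that phosphorylates BAD, and YWHAG, a 14-3-3 protein, rose with log2 fold changes of 0.27 and 0.19 (edgeR adjusted p 0.0112 and 0.0306). AKT1 was not past the threshold with the offset for transcript GC content and length (log2 fold change 0.11, edgeR adjusted p 0.136, and 0.149 with the replicate block as well), without siControl replicate 2 (edgeR adjusted p 0.0504) or without siMETTL3 replicate 2 (0.0720). YWHAG was not with the offset for intron length (0.13, edgeR adjusted p 0.145), without siControl replicate 2 (0.15, edgeR adjusted p 0.164), or when siMETTL3 replicate 1, 2 or 3 was left out (edgeR adjusted p 0.0952, 0.117 and 0.0877). FOXO3, a transcription factor of the BCL2L11 gene, had a log2 fold change of 0.023 (edgeR adjusted p 0.791), and HUWE1, a ubiquitin ligase of MCL-1, one of -0.024 (edgeR adjusted p 0.774); both were picked after their values were seen. Fewer genes of this list were called without siControl replicate 2 or siMETTL3 replicate 2 (2 each) and without siMETTL3 replicate 1 or 3 (3 each).

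**Figure D4:**
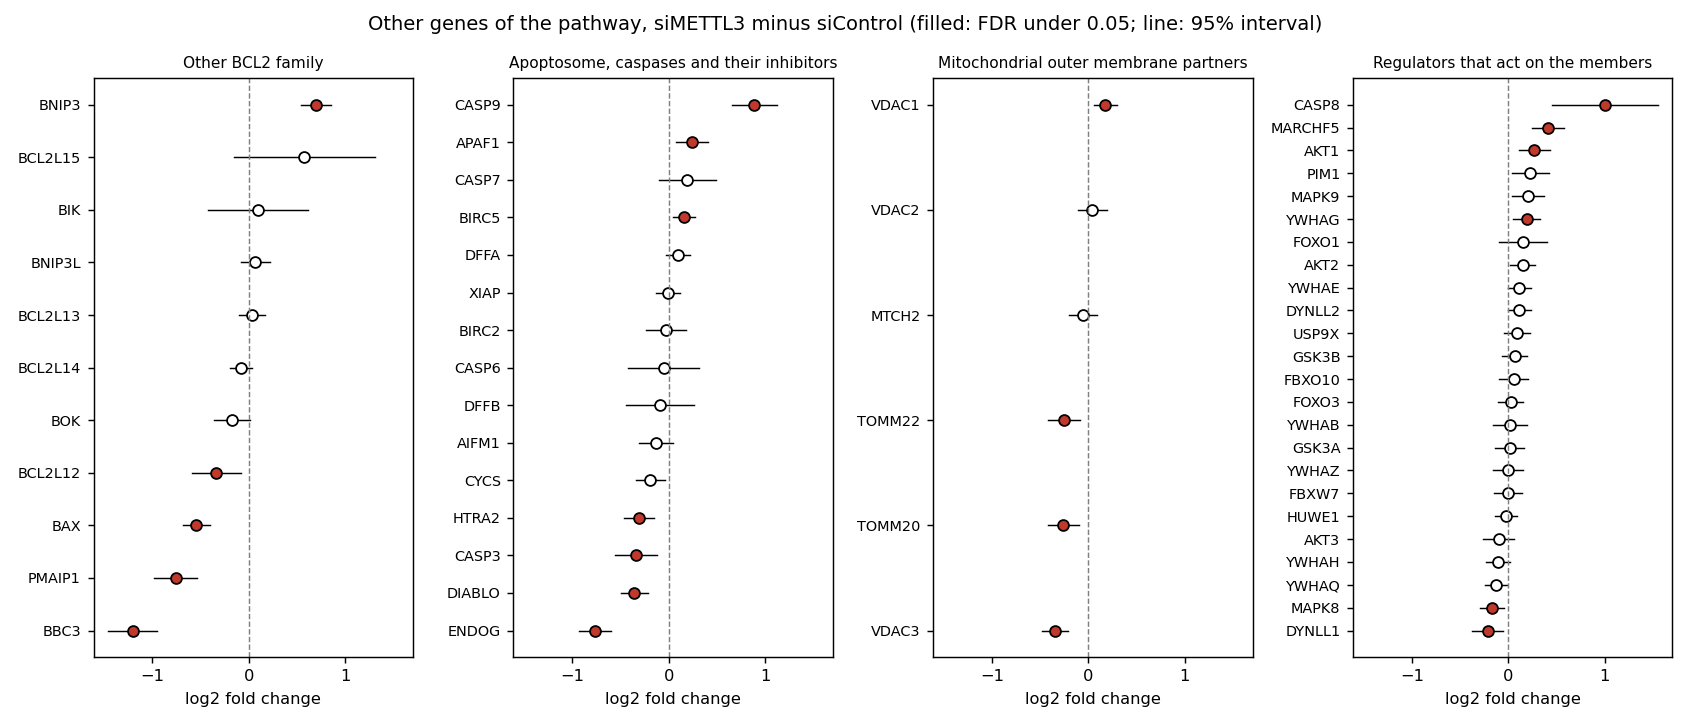
The log2 fold change (siMETTL3 minus siControl) of the tested genes of the 4 lists, with 95% intervals; filled points have an adjusted p under 0.05 over all tested genes. BBC3 lies lowest at -1.20 and CASP8 highest at 1.00, and most regulators on the right lie near 0.

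**Figure D5:**
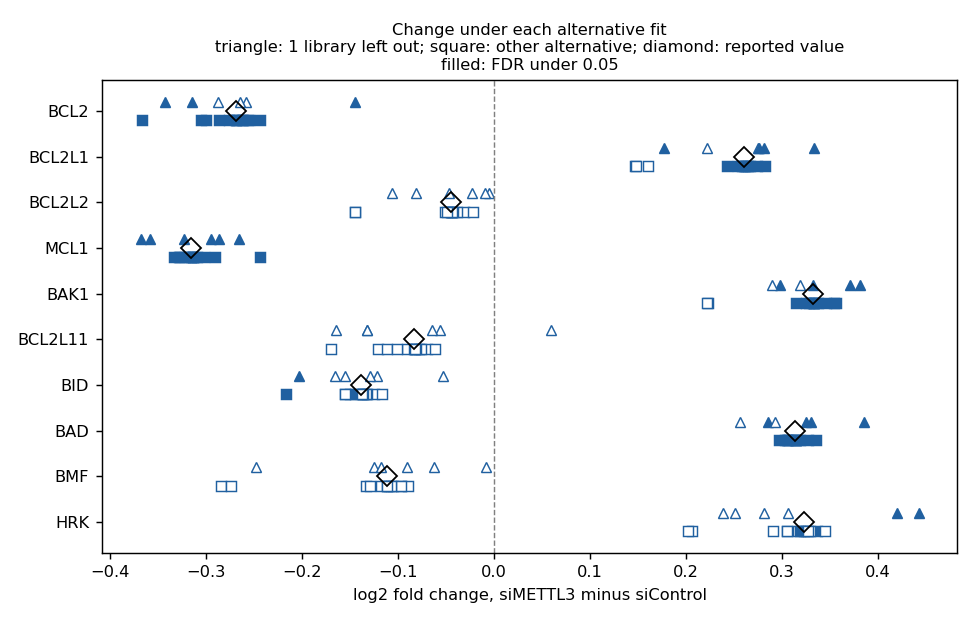
The log2 fold change of each of the 10 genes under every alternative fit; triangles leave out 1 library, squares are the other alternatives, the diamond is the reported value, and filled symbols have an adjusted p under 0.05. All symbols of MCL1 are filled, between -0.37 and -0.24, and BCL2L11 has 1 open symbol at 0.059 on the other side of 0.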

How the data were processed

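RNA-seq of poly(A) RNA gave 6 libraries. Per the file headers, the authors made raw counts per gene with featureCounts v1.5.3 over whole gene spans (introns included) of a GENCODE release 33 protein-coding annotation, reads over several genes counted for each, with no strand option. The submitters' processing notes name FastQC 0.11.5, Trimmomatic 0.36, HISAT2 2.1.0 and GRCh38. Coordinates are those of the deposited counts. For all 18962 genes found in GENCODE release 44, the canonical transcript there overlapped the counted span on the same chromosome.

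Here genes were kept by edgeR's filterByExpr, scaled by TMM, and compared with edgeR 4.0.16 in R 4.3.3 (robust quasi-likelihood F-test, all 6 libraries, no covariate). P-values were adjusted by the Benjamini-Hochberg method (FDR) over all 15311 tested genes, with a threshold of 0.05; the SE of a log2 fold change was taken from its F statistic. The fit was tested on simulated data. Alternatives used DESeq2 1.42.0, limma-voom 3.58.1, other scalings, filters, offsets, the replicate block and each library left out. All 10 members were named; from each list up to 4 genes with the lowest adjusted p past the threshold, and BAX, BBC3 and PMAIP1. The members, lists and rule were chosen with earlier results of these data known. MAPK10 and some listed markers were not analysed here. Replicates differed beyond counting error, with chi-square values per degree of freedom of 3.05 to 3.75 for pairs of siMETTL3 libraries, 5.57 for siControl replicates 1 and 2, and 8.86 and 16.2 for the pairs with siControl replicate 3.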

Additional observations from a re-analysis of the deposited data

How the results depend on the processing

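MCL1 kept its direction and its call in all 19 alternatives. The count of called members moved from 5 to 3 with the offset for transcript GC content and length. Over all tested genes, calls went from 5786 to 6454 with that offset. The count of called members lay between 3 and 6 over the fits without 1 library. With all 6 libraries, 5 of the 128 alternative values of the members lost the threshold and 4 passed it; with a library left out, 9 of 60 lost it, 3 passed it and 1 changed sign (BCL2L11, range -0.16 to 0.059). On genes that overlap no other gene, 3749 genes were called (1851 higher, 1898 lower), since fewer were tested, and the caspase list had 3 calls; BAD, BCL2L2, METTL3 and the named genes CASP9, ENDOG, DIABLO and HTRA2 could not be fitted there, so those 3 calls are of other genes. The outer membrane list had 2 calls with the intron length offset; the cause was not tested. Over the fits without 1 library, called genes went from 4210 to 6394 (higher 2091 to 3178, lower 2119 to 3216), the caspase list from 4 to 8 calls, the outer membrane list from 1 to 4, and the regulators from 2 to 9. The share of higher genes among all calls was 49.2%, and 37.9% with the intron length offset. The labels give no pairing beyond the replicate number (correlation of deviations 0.040 to 0.067 for equal numbers); each library correlated best with its own number. With the replicate block 6166 genes and 6 members were called, HRK (log2 fold change 0.32) being added. Counts of 137 to 445 limit BMF, HRK, BAK1 and BCL2L11.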

Other observations

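Ratios of raw counts within a library do not depend on the scaling. The following were picked after the values had been seen and carry no test. The ratio of MCL1 to BAK1 counts was 10.0, 11.4 and 12.8 in siControl and 7.33, 6.62 and 7.74 in siMETTL3. The ratio of MCL1 to BCL2L1 counts was 2.18, 2.48 and 3.11 in siControl and 1.69, 1.70 and 1.74 in siMETTL3. The ratio of BCL2 to BCL2L1 counts was 1.60, 1.65 and 2.50 in siControl and 1.32, 1.32 and 1.26 in siMETTL3. In these 3 ratios the groups did not overlap, and siControl replicate 3 was highest. The lack of overlap follows from the genes chosen, and adds nothing to their results above. MCL1 and BCL2 were lower, and BAK1 and BCL2L1 higher, in every siMETTL3 library than in any siControl library. The ratio of BCL2 to BCL2L11 counts was 5.80, 7.37 and 9.22 in siControl and 6.56, 6.53 and 6.15 in siMETTL3, so those groups overlapped. Gene lengths enter each ratio, so their sizes are not ratios of transcripts.

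BCL2L14, a family member picked here after its values were seen, was counted at 217 to 223 CPM in siControl. Its span overlaps LRP6 over 95060 bases, 59.0% of its length, and LRP6 was at 236 to 246 CPM in siControl.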
